A study of Solanum lycopersicum with 6 samples.

Results

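The comparison described here set dormant axillary buds of the tomato (Solanum lycopersicum) line titled 156OE, called miR156-OE below, against those of the wild type MT, and it covers 24920 of the 34075 gene IDs listed, namely all those that the authors' deposited table does not list at a change of 0. These 24920 genes are called detected, and no gene was chosen by its size or direction of change. Transcripts were measured by poly(A) RNA sequencing in 2 libraries of miR156-OE and 2 of MT, each from around 20 buds of 4 to 5 greenhouse plants cut 25 days after germination. The third genotype of the series is titled rSBP15OE, which reads as an overexpressor, and is called rSBP15 below. Its 2 libraries, compared with the same MT libraries, are given only for values side by side. All plants were of the cultivar labelled MT, known as Micro-Tom, a dwarf tomato that carries mutant alleles of DWARF and of SELF-PRUNING, so that these alleles are shared by all genotypes. The miR156-OE line is known from earlier work as one that expresses an Arabidopsis MIR156 precursor from the constitutive cauliflower mosaic virus promoter. The labels give neither the promoter nor the number of independent transformants.

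miR156 is a plant microRNA that is abundant in juvenile shoots and directs the cleavage and translational repression of transcripts of SBP-box (SPL) transcription factors. Loss of SBP-box activity is known to prolong the juvenile phase, delay flowering and increase shoot branching in several species. Axillary buds form from meristems in the leaf axils and can stay dormant until released. In tomato their initiation depends on boundary genes such as GOBLET and LATERAL SUPPRESSOR, and their arrest on TCP factors of the BRANCHED1 type.

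The measurements are the log fold change of miR156-OE over MT and its p-value, both by the authors. A negative value means a lower level in miR156-OE. The base of the logarithm is not given in the sources used here, so values stay on the deposited scale. No level, read depth or value of a single library is in this table, so precision is given as the residual standard deviation of 2 libraries against 2, recovered from each p-value, which equals the standard error (SE) of the log fold change. That spread also tells whether the libraries of miR156-OE and MT can overlap. A log fold change larger than the spread times the square root of 2 means that they cannot, and one smaller than the spread means that they must. Gene names were assigned to IDs from published tomato nomenclature, since the files pair no ID with a name. Nothing in the labels says that the libraries of a genotype came from separate sowings, so the p-values measure the spread between these samples.

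The median log fold change was -0.00059 and the median size 0.0596, against a median SE of 0.0624, in the authors' deposited table and the spread recovered from it. The size was at most 0.306 in 90% of detected genes. Of all detected genes, 12285 were above 0 and 12635 below. The libraries of the genotypes could not overlap in 9448 detected genes (37.9%), 4555 higher and 4893 lower (19.6%) in miR156-OE, and had to overlap in 12573 (50.5%). A deposited p under 0.05 was held by 3301 genes (13.2%), 1481 higher (5.94%) and 1820 lower (7.3%). A p this low needs a log fold change well beyond the bound for overlap, so these genes are all among the 9448 by construction. Of the 3301, 1108 had a size under 0.1, so a low p did not need a large change. The balance of directions varied with size. Of the 422 genes with a p under 0.05 and a size of at least 0.5, 259 were higher and 163 lower in miR156-OE. At a size of at least 1 there were 78 (0.313%), 32 higher and 46 lower. Another 62 genes of that size had larger p-values, 44 of them higher.

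**Figure D1:**
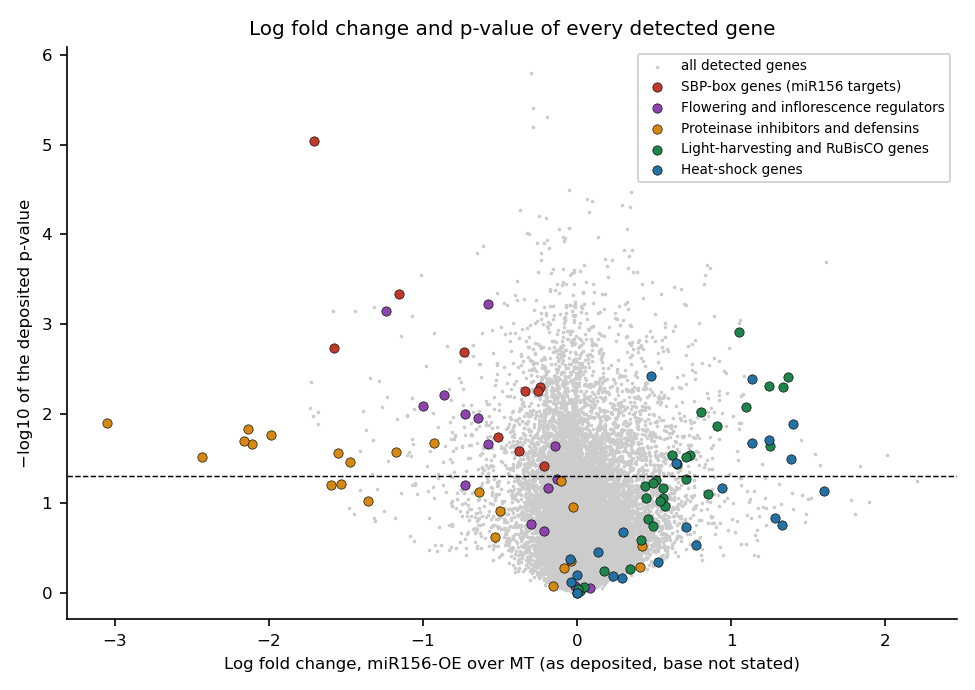
The x axis is the deposited log fold change of miR156-OE over MT and the y axis −log10 of the deposited p-value, with 1 point for each of 24920 detected genes; coloured points are gene lists and the dashed line marks a p of 0.05. All 10 SBP-box genes lie left of 0 and above the line, the proteinase inhibitors and defensins reach -3.05 on the left, and the light-harvesting, RuBisCO and most heat-shock genes lie right of 0.

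**Figure D2:**
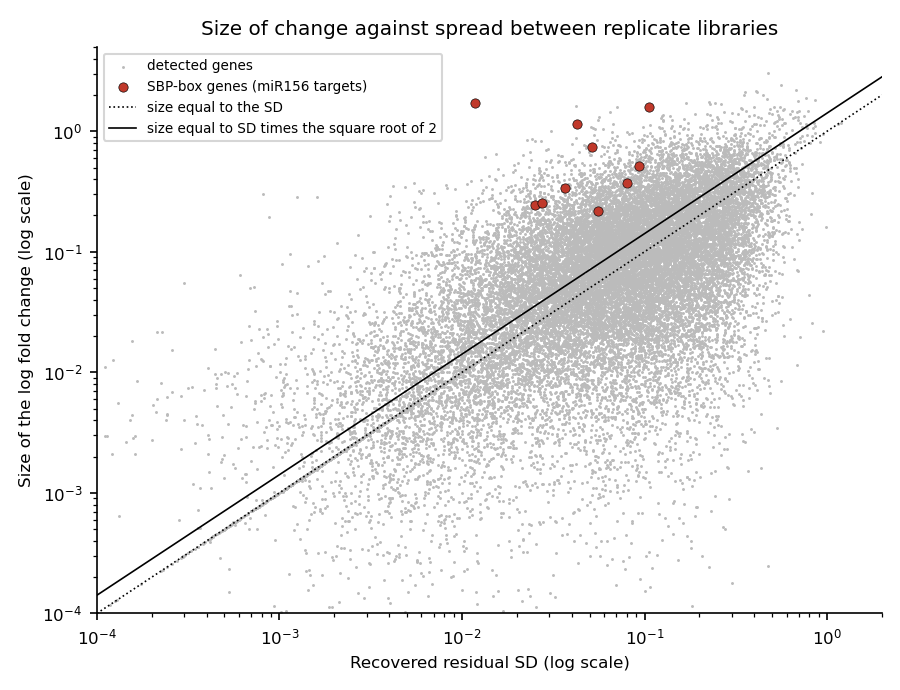
The x axis is the residual SD recovered for each detected gene and the y axis the size of its log fold change, both on log scales; genes above the solid line cannot overlap between miR156-OE and MT, and genes below the dotted line must overlap. The 10 SBP-box genes lie above the solid line, as any gene with a p under 0.05 must, and SlySBP3 stands apart with a log fold change of -1.71 at a SD of 0.0118.

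After Benjamini-Hochberg adjustment over detected genes, 5 genes (0.0201%) had an adjusted p under 0.05 in the limma-type test, and all 5 were lower in miR156-OE. SlySBP3 (Solyc10g009080.4), an SBP-box gene targeted by miR156, was furthest from 0 of the 5, at -1.71 in the authors' deposited table (SE 0.0118, adjusted p = 0.0453). CAT3 (Solyc04g082460.4), which codes for a catalase that breaks down hydrogen peroxide, was at -0.29 in the authors' deposited table (SE 0.00125, adjusted p = 0.0394). The other three have IDs with no name in the sources used here. Solyc06g005070.3 was at -0.30, Solyc04g025560.4 at -0.29 and Solyc08g045640.3 at -0.20 in the authors' deposited table, each with an adjusted p of 0.0394. Their SEs were between 0.000810 and 0.00160. The 4 genes other than SlySBP3 therefore passed through replicate libraries that lay very close together. In rSBP15, from the authors' deposited table, CAT3 was at -0.35, Solyc06g005070.3 at 0.13, Solyc04g025560.4 at 0.87 and Solyc08g045640.3 at 0.03. With the variance moderation refitted on detected genes the adjusted p-values of the 5 genes were 0.132 to 0.207, so that all 5 calls were lost. In the text below, "called" means a deposited p under 0.05 without adjustment, and no called gene other than these 5 passed the adjusted threshold.

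The SBP-box genes that carry a miR156 target site were lower in miR156-OE without exception. All 10 genes of the list had negative log fold changes, and all 10 were called, where 7.3% of detected genes were called lower. The list's median was -0.44, against -0.00059 over all detected genes. SlySBP6a (Solyc03g114850) followed SlySBP3 with -1.58 in the authors' deposited table (SE 0.106, p = 0.00187). SlySBP13 (Solyc05g015840) was at -1.16 in the authors' deposited table (SE 0.0428, p = 0.000460). SlySBP6b (Solyc12g038520) was at -0.74 in the authors' deposited table (SE 0.0515, p = 0.00204). These 4 genes lay furthest below 0. SlySBP15 (Solyc10g078700), the gene whose miR156-resistant form gives the rSBP15 line its name, was at -0.51 in the authors' deposited table (SE 0.0930, p = 0.0182). CNR (Solyc02g077920), known for the Colorless non-ripening fruit mutant, was at -0.38 in the authors' deposited table (SE 0.0804, p = 0.0263). The smaller values were those of SlySBP10 at -0.34, SlySBP6c at -0.25, SlySBP2 at -0.24 and SlySBP4 at -0.22 in the authors' deposited table, with p-values from 0.00509 to 0.0386. In buds pooled whole, fewer cells of a type and less RNA per cell cannot be told apart, here and for every gene below.

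In the rSBP15 table, which shares the MT libraries, 6 of the 10 were called, where 33.3% of that table's detected genes were. Of these, 5 were called lower (16.2% of detected genes were) and SlySBP15 was called higher (17.1% were). SlySBP3 was at -0.49 and SlySBP6a at -0.95 in the authors' deposited table for rSBP15, both nearer to 0 than in miR156-OE. SlySBP15 was at 0.52 (p = 0.0284) in the authors' deposited table for rSBP15, on the other side of 0 from its value in miR156-OE. The title of that line, rSBP15OE, reads as overexpression of a form of this same gene. Of the others, SlySBP13 was at -0.82, SlySBP6b at -0.41, CNR at -0.24, SlySBP10 at -0.08, SlySBP2 at -0.15 and SlySBP4 at -0.15 in the authors' deposited table for rSBP15. SlySBP6c was at 0.01 (p = 0.726) in the authors' deposited table for rSBP15. The differences between the tables were not tested for these genes.

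**Figure D3:**
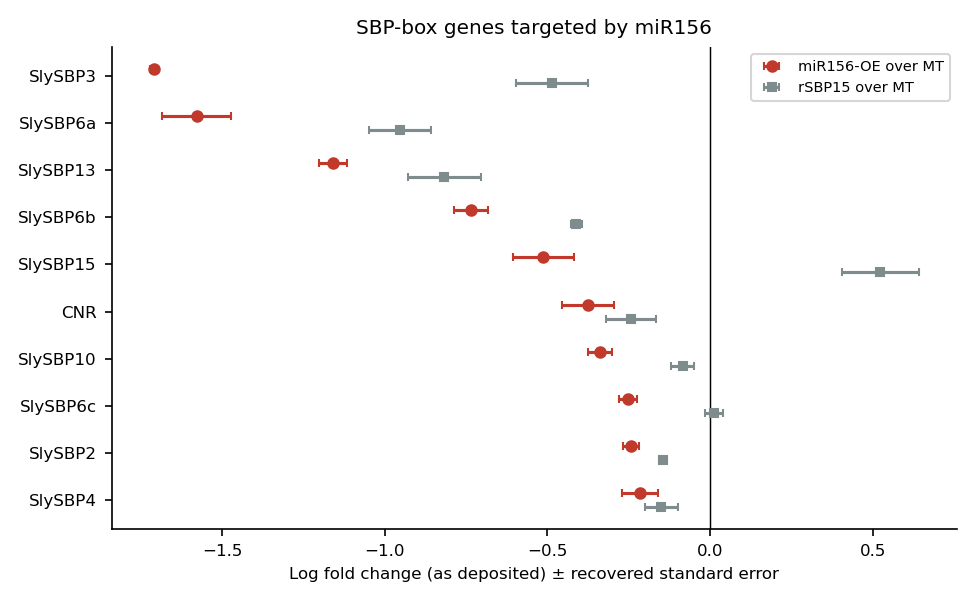
Each row is 1 SBP-box gene with a miR156 target site, ordered by its value in miR156-OE; the x axis is the deposited log fold change, red circles are miR156-OE over MT, grey squares rSBP15 over MT, and bars are ± the recovered SE. The red circles run from -1.71 (SlySBP3) to -0.22 (SlySBP4), and SlySBP15 is the gene whose square lies clearly right of 0, at 0.52.

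Genes of bud initiation and arrest were in part lower as well. Of the 7 branching and boundary regulators, 5 were below 0 and 4 were called, all lower, where 7.3% of detected genes were called lower, with a list median of -0.20. GOBLET (Solyc07g062840), a NAC factor that sets organ boundaries, was at -0.55 in the authors' deposited table (SE 0.0304, p = 0.00117). BLIND (Solyc11g069030), a MYB factor needed for axillary meristem initiation, was at -0.20 (SE 0.0346, p = 0.0159), and LATERAL SUPPRESSOR (Solyc07g066250), a GRAS factor with the same requirement, was at -0.12 (SE 0.00425, p = 0.000455) in the authors' deposited table. SlBRC1a (Solyc03g119770), a TCP factor of the BRANCHED1 type, was at -0.32 (SE 0.0744, p = 0.0309) and its paralog SlBRC1b (Solyc06g069240) at -0.30 (SE 0.0987, p = 0.0662) in the authors' deposited table. Of the paralogs only SlBRC1a was called. POTATO LEAF, a MYB paralog of BLIND, was at 0.02 (p = 0.223) and LANCEOLATE, a TCP factor of leaf margins that miR319 targets, at 0.01 (p = 0.962) in the authors' deposited table. LANCEOLATE had a large SE of 0.208, and its libraries overlapped. For rSBP15, SlBRC1a was at -0.18, SlBRC1b at -0.44, BLIND at -0.31, LATERAL SUPPRESSOR at -0.17 and POTATO LEAF at -0.01 in the authors' deposited table. In rSBP15 LANCEOLATE was at -1.01 (p = 0.000800) and GOBLET at -1.13 (p = 0.000398) in the authors' deposited table.

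Of the 5 meristem genes 2 were called, where 13.2% of all detected genes were, and both changes were small. SlWUS (Solyc02g083950), the stem-cell organiser gene, was at -0.14 (SE 0.0330, p = 0.0344) in the authors' deposited table. FAB (Solyc04g081590), the CLAVATA1-type receptor kinase that limits meristem size, was at 0.21 (SE 0.0517, p = 0.0364) in the authors' deposited table. SlCLV3, the peptide gene of the same pathway, was at -0.14 (p = 0.0762) in the authors' deposited table, and the KNOX genes TKN2 and TKN1 were at -0.11 and -0.07 with overlapping libraries. The rSBP15 values of the called pair were -0.19 for SlWUS and 0.33 for FAB in the authors' deposited table. With no moderation of the variance 0 of the 5 meristem genes were called, where 2437 of all 24920 detected genes were.

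Regulators of flowering and inflorescence development were mostly at lower values. Of 16 genes, 15 were below 0 and 8 were called, all 8 of them lower, against 7.3% of all detected genes called lower. The list median was -0.44. MACROCALYX (Solyc05g056620), an APETALA1-type MADS gene of sepals and inflorescences, was at -1.24 in the authors' deposited table (SE 0.0556, p = 0.000718). JOINTLESS2 (Solyc12g038510), a SEPALLATA-type MADS gene of the flower stalk joint, was at -1.002 in the authors' deposited table (SE 0.129, p = 0.00830). ANANTHA (Solyc02g081670), an F-box gene needed to make flowers, was at -0.87 in the authors' deposited table (SE 0.0972, p = 0.00611). FALSIFLORA (Solyc03g118160), the tomato LEAFY gene that works with ANANTHA, was at -0.73 in the authors' deposited table (SE 0.102, p = 0.0101). All 4 are floral identity or floral abscission genes. All 4 were also called lower in rSBP15, at -0.84, -0.96, -0.90 and -0.48 in the authors' deposited table. Of all genes detected in rSBP15, 16.2% were called lower. Both comparisons rest on the same MT libraries, so the rSBP15 calls are not an independent observation of these genes.

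The FRUITFULL-type MADS genes, which promote the change to flowering, differed in sign between miR156-OE and rSBP15 for some members; these differences were not tested. FUL2 (Solyc03g114830) was at -0.64 in miR156-OE (SE 0.0942, p = 0.0113) and at 0.55 in rSBP15 (p = 0.0173) in the authors' deposited tables. FUL1 (Solyc06g069430) was at -0.58 in miR156-OE (SE 0.114, p = 0.0215) and at 0.54 in rSBP15 (p = 0.0450) in the authors' deposited tables. MBP20 (Solyc02g089210) was at -0.58 in miR156-OE (SE 0.0239, p = 0.000601) and at -0.18 in rSBP15 (p = 0.0658) in the authors' deposited tables. MBP10, the fourth gene of this clade, was at -0.13 in miR156-OE (p = 0.0530) and at 0.997 in rSBP15 (p = 0.000157) in the authors' deposited tables. The eighth called gene, COMPOUND INFLORESCENCE (Solyc02g077390), a WUSCHEL-type homeobox gene of inflorescence branching, was at -0.15 (SE 0.0294, p = 0.0227), against -0.21 in rSBP15, in the authors' deposited table. TMF, STM3 and SlBOP2 had values between -0.01 and 0.08 with overlapping libraries.

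In the florigen family 2 of 5 detected genes were called, both lower (7.3% of all detected genes were called lower). SELF-PRUNING (SP, Solyc06g074350), the TERMINAL FLOWER1-type repressor whose allele in Micro-Tom is the mutant one, was at -1.09 (SE 0.236, p = 0.0268) in the authors' deposited table, against 0.79 (p = 0.0807) in rSBP15. SSP (Solyc02g083520), the bZIP partner of florigen, was at -1.06 (SE 0.208, p = 0.0216), against -0.38 in rSBP15, in the authors' deposited table. SFT, the florigen gene itself, was at -0.01 (SE 0.00931, p = 0.378) in the authors' deposited table. The size of that value equals its SE, the pattern given by a value in only 1 library, here of MT. It is therefore no precise measure of SFT. SP5G and SP6A were listed at 0. Of the AP2-type genes, SlAP2b (Solyc02g064960) was higher, at 0.50 (SE 0.0313, p = 0.00155), against 0.02 in rSBP15, while SlAP2a and SlAP2c were not called in the authors' deposited table.

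Floral organ genes of the MADS family were at lower values too. Of the 5 genes of the first floral organ list, all below 0, TM5 (Solyc05g015750) and TM29 (Solyc02g089200), both SEPALLATA-type, were called at -1.17 (SE 0.263, p = 0.0291) and -1.23 (SE 0.295, p = 0.0336) in the authors' deposited table. The AGAMOUS-type gene TAG1 was at -0.63 (p = 0.125) in the authors' deposited table. RIN, a MADS gene of fruit ripening that this list includes, was at -0.0083 (p = 0.611) in the authors' deposited table. Its libraries overlapped. A second set of 8 floral MADS genes was added after the values were seen, and its counts are therefore a description. Of its 6 detected members, all below 0, 4 were called. SlAGL6 (Solyc01g093960) was at -1.37 (SE 0.229, p = 0.0151), TAP3 (Solyc04g081000), the APETALA3-type gene of petals and stamens, at -1.33 (SE 0.376, p = 0.0475), and its paralog TM6 (Solyc02g084630) at -0.80 (SE 0.141, p = 0.0173) in the authors' deposited table. SlCMB1 (Solyc04g005320), a SEPALLATA-type gene, was at -0.42 (SE 0.0211, p = 0.000963) in the authors' deposited table. The partner genes of TAP3, TPI and SlGLO1, were at -1.30 (p = 0.0685) and -1.14 (p = 0.0762) in the authors' deposited table. Over both sets 11 of 11 detected genes were below 0 and 6 were called lower, against 7.3% of all detected genes. In rSBP15 4 were called lower and 1, RIN, higher, against 16.2% and 17.1% of that table's detected genes. RIN was at 0.085 (p = 0.0240) in the authors' deposited table for rSBP15. The medians were -1.14 in miR156-OE and -1.03 in rSBP15. Both comparisons rest on the same MT libraries, so they are not independent. Among those called in miR156-OE, TM5 was at -1.12, TM29 at -1.03, SlAGL6 at -1.07, TAP3 at -1.24, TM6 at -0.29 and SlCMB1 at -0.22 in the authors' deposited table for rSBP15. The labels call the buds of all genotypes dormant. The tables hold no levels, so they do not show how much floral tissue the MT buds held. Of the 4 genes of a separate fruit ripening list, PG2a and NOR were listed at 0 and neither PSY1 nor EXP1 was called.

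**Figure D4:**
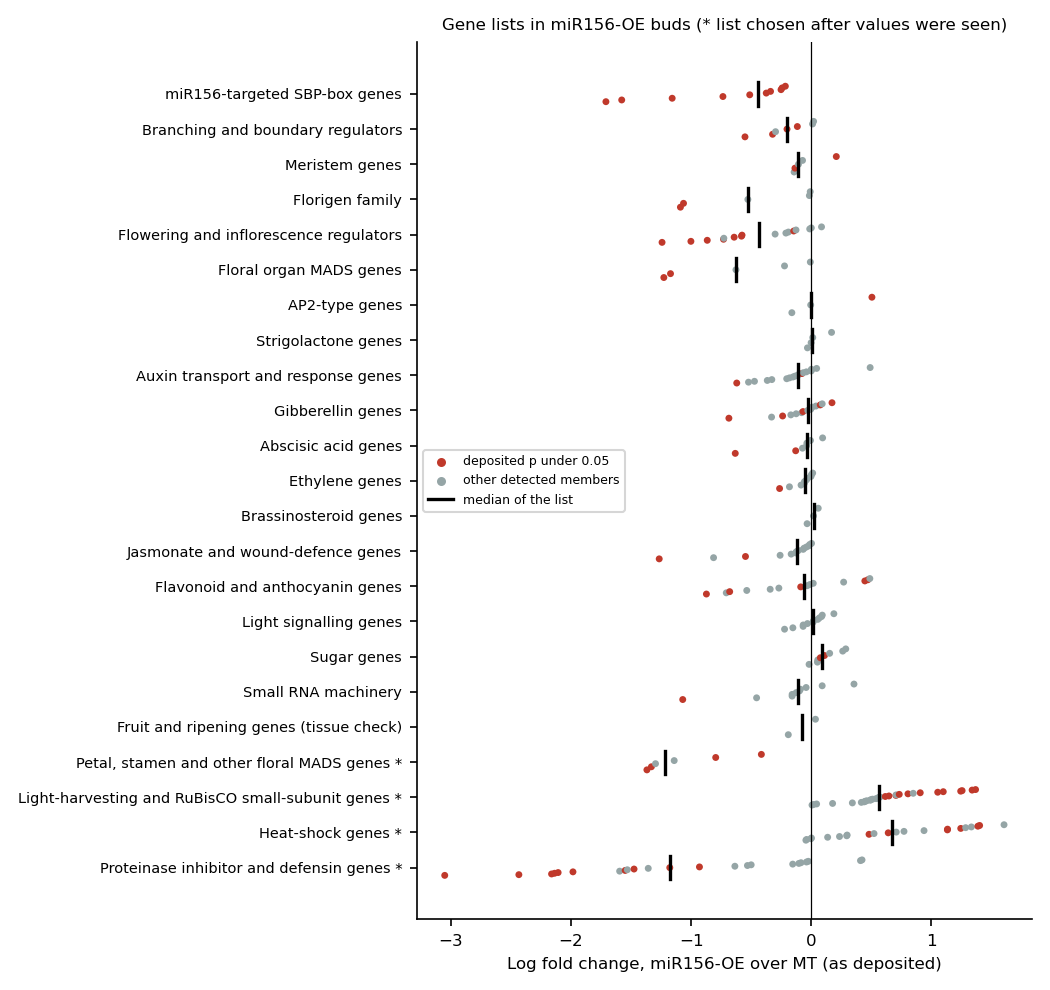
Each row is 1 gene list and each point a detected member, with the deposited log fold change of miR156-OE over MT on the x axis; red points have a deposited p under 0.05, black bars are list medians, and starred lists were chosen after values were seen. The SBP-box and floral lists lie wholly or mostly left of 0 with medians of -0.44 to -1.22, while most hormone lists centre near 0.

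The lowest called values of the whole table lay outside these families. Of the 46 called genes lower by at least 1, 24 could be identified, and of the 32 higher by at least 1, 11 could. Those identified include members of lists drawn up earlier, such as SlySBP3 and MACROCALYX. The rest were identified, and the lists around them drawn up, after the values were seen. The counts for those later lists describe these genes and are not independent of their choice.

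The lowest values were those of genes for defence proteins that plants store against herbivores and microbes. The most negative value of the table, -3.05 (SE 0.472, p = 0.0127), belonged to Solyc07g006380, a gene for a defensin-like peptide, in the authors' deposited table. Solyc09g084470, of the family of wound-induced proteinase inhibitors I, was at -2.43 (SE 0.558, p = 0.0305) in the authors' deposited table. Of the Kunitz-type protease inhibitor genes, Solyc03g098780 was at -2.16 (SE 0.410, p = 0.0201), Solyc11g022590 at -2.14 (SE 0.355, p = 0.0149) and Solyc03g098710 at -2.11 (SE 0.414, p = 0.0217) in the authors' deposited table. Solyc11g021060, another proteinase inhibitor gene, was at -1.98 (SE 0.350, p = 0.0171) in the authors' deposited table. These 6 had the 6 lowest values among called genes.

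Over the 28 proteinase inhibitor and defensin genes, 23 were detected, 21 of them below 0 and 10 called, all lower, with a median of -1.18. Of all detected genes 7.3% were called lower. Their SEs were large. Libraries had to overlap in 4 of the 23 detected genes and could not in 18. Over all detected genes the shares were 50.5% and 37.9%. Many sit in clusters of close copies, among which reads may be shared, so single members are uncertain. Of the 8 Kunitz genes all were below 0 and 3 were called, and of the 6 inhibitor I genes 5 were below 0 and 1 was called. Of those named, Solyc07g006380 was at -1.60, Solyc09g084470 at -0.91, Solyc03g098780 at -0.50, Solyc11g022590 at -0.72 and Solyc11g021060 at -1.07 in the authors' deposited table for rSBP15. In rSBP15 3 of the genes were called, all lower, where 16.2% of all detected genes were called lower, and Solyc03g098710 was at -2.17 (p = 0.0193) there in the authors' deposited table.

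Of the 14 detected genes of the jasmonate and wound-defence list, 13 were below 0 at a median of -0.12, and 2 were called, both lower. That share is close to the 13.2% of all detected genes that were called. PPO F (Solyc08g074630), a polyphenol oxidase that browns damaged tissue, was at -1.27 (SE 0.164, p = 0.00844) in the authors' deposited table, against -2.60 (p = 0.000394) in rSBP15. SlJAZ2 (Solyc12g009220), a repressor of jasmonate signalling, was at -0.55 (SE 0.0386, p = 0.00208), against -0.75 in rSBP15, in the authors' deposited table. TomLoxD, the lipoxygenase of jasmonate synthesis, was at -0.81 (p = 0.0513), and SlMYC2, the transcription factor of the response, at -0.26 (p = 0.180) in the authors' deposited table. The WRKY factors WRKY81 (Solyc09g015770) and WRKY80 (Solyc03g095770), identified after their values were seen, were at -1.58 (SE 0.0705, p = 0.000713) and -1.44 (SE 0.0644, p = 0.000718) in the authors' deposited table, against -0.15 (p = 0.0779) and -0.40 (p = 0.0181) in rSBP15. SlRDR1 (Solyc05g007510), an RNA-dependent RNA polymerase of antiviral defence, was the only one of 10 detected small RNA genes called (13.2% of all detected genes were), at -1.07 (SE 0.125, p = 0.00674), against 0.06 (p = 0.620) in rSBP15 in the authors' deposited tables. SlAGO1A and SlAGO1B, which carry miRNAs, were at -0.16 and -0.46 with SEs of 0.352 and 0.336.

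Among the identified genes at higher values were photosynthesis and heat-shock genes. The chlorophyll a/b-binding proteins of the light-harvesting family feed the photosystems. All 26 genes listed here for this family were above 0, and 10 were called (5.94% of detected genes were called higher). Their median was 0.57. The CAB1 cluster on chromosome 2 stood highest: 5 of its 8 genes were called, with a median of 1.17 in the authors' deposited table. Solyc02g071000 was at 1.37 (SE 0.127, p = 0.00392), Solyc02g070980 at 1.34 (SE 0.138, p = 0.00504) and Solyc02g070950 at 1.24 (SE 0.126, p = 0.00487) in the authors' deposited table. In the CAB3 cluster on chromosome 3, Solyc03g005780 was at 1.05 (SE 0.0592, p = 0.00123) in the authors' deposited table. Members of these clusters are near-identical copies, so they are not independent measurements. Of the genes for the small subunit of RuBisCO, the carbon-fixing enzyme, RBCS1 was at 0.73 (SE 0.164, p = 0.0292) and RBCS2A at 0.70 (SE 0.161, p = 0.0304) in the authors' deposited table. These were the called 2 of 4 such genes, and RBCS3B was at 0.50 (p = 0.0587) and RBCST was at 0.0058 (p = 0.901) in the authors' deposited table. In rSBP15, 4 of the 26 light-harvesting genes were called, all higher, with a median of 0.35, and 17.1% of all genes detected there were called higher. There Solyc02g071000 was at 0.62, Solyc02g070980 at 0.42, Solyc02g070950 at 0.56, Solyc03g005780 at 0.33, RBCS1 at 0.06 and RBCS2A at 0.45 in the authors' deposited table for rSBP15.

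Of the 22 heat-shock genes kept, 19 were above 0 and 7 were called, all higher, with a median of 0.67. Of all detected genes 5.94% were called higher. Hsc70 (Solyc09g010630), at -0.23 (p = 0.0567) in the authors' deposited table, was dropped because its name is on another chromosome in RefSeq. That value is lower than those of all 22 kept. The chaperone genes HSP90a (Solyc03g007890) and HSP90b (Solyc06g036290), so named here to tell the copies apart, were at 1.40 (SE 0.219, p = 0.0131) and 1.13 (SE 0.108, p = 0.00415) in the authors' deposited table. HSP101 (Solyc03g115230), which dissolves protein aggregates, was at 1.13 (SE 0.220, p = 0.0213), and the heat-shock factors HSFA7 (Solyc09g065660) and HSFA2 (Solyc08g062960) were at 1.24 (SE 0.234, p = 0.0197) and 0.48 (SE 0.0438, p = 0.00377) in the authors' deposited table. VIS1 (Solyc05g014280), a small heat-shock protein gene, was at 1.39 (SE 0.324, p = 0.0319) in the authors' deposited table. Hsc70.2 (Solyc10g086410), of the HSP70 chaperone family, was at 0.64 (SE 0.157, p = 0.0351) in the authors' deposited table. VIS1 was the only 1 of 14 small heat-shock protein genes called. The other 13 reached 1.604, but their SEs reached 0.748. Libraries had to overlap in 6 of the 14, where they had to in 50.5% of all detected genes. Of the other called genes, HSP101 was at 0.56, HSFA7 at -0.35, HSFA2 at 0.51, VIS1 at -0.12 and Hsc70.2 at -0.04 in the authors' deposited table for rSBP15. In rSBP15 HSP90a was at 0.15 (p = 0.526) and HSP90b at -0.07 (p = 0.629) in the authors' deposited table.

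The highest values among called genes were those of 2 IDs without a name in the sources used here, namely Solyc06g072430.3 at 2.01 (SE 0.447, p = 0.0285) and Solyc06g061200.1 at 1.84 (SE 0.468, p = 0.0383) in the authors' deposited table. Both were also called higher in rSBP15, at 1.54 (p = 0.0460) and 1.75 (p = 0.0109) in the authors' deposited table. That comparison uses the same MT libraries, and 17.1% of the genes detected in it were called higher. The lowest values among called genes without a name were those of Solyc04g079210.3 at -1.73 (SE 0.226, p = 0.00862) and Solyc01g006390.2 at -1.73 (SE 0.169, p = 0.00445) in the authors' deposited table. In rSBP15 they were at -0.27 and -1.76 in the authors' deposited table.

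**Figure D5:**
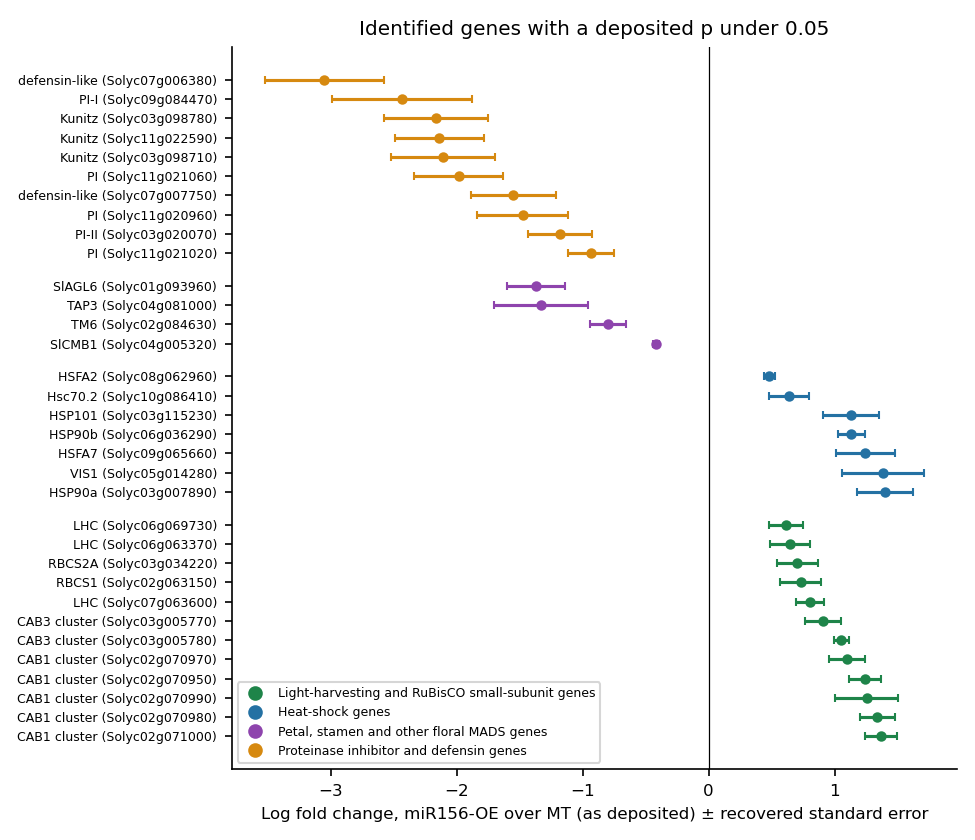
Each row is 1 identified gene with a deposited p under 0.05 from the proteinase inhibitor and defensin, floral MADS, heat-shock, and light-harvesting and RuBisCO lists; the x axis is the deposited log fold change of miR156-OE over MT and bars are ± the recovered SE. Values run from -3.05 for a defensin-like gene to 1.40 for HSP90a, and the widest SE, 0.558, is that of the proteinase inhibitor I gene Solyc09g084470.

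The hormone lists differed in how many genes were called, where 13.2% of all detected genes were. In auxin transport and response, 2 of 19 detected genes were called, both lower. SlARF3 (Solyc02g077560), an auxin response factor of organ polarity, was at -0.62 (SE 0.0575, p = 0.00392), and the efflux carrier gene SlPIN3 (Solyc04g007690) at -0.08 (SE 0.00379, p = 0.000892) in the authors' deposited table. Their rSBP15 values were -0.63 for SlARF3 and 0.16 for SlPIN3 in the authors' deposited table. SlPIN9 and SlPIN5 were at -0.52 (p = 0.0638) and -0.47 (p = 0.0947), and SlPIN4 at 0.49 (p = 0.0741) in the authors' deposited table. The carrier genes with the larger values were thus not called. Of 15 gibberellin genes 5 were called, 2 higher and 3 lower, where 5.94% of all detected genes were called higher and 7.3% lower. The receptor gene SlGID1b1 (Solyc09g074270) was at -0.69 (SE 0.0871, p = 0.00810) and PROCERA (Solyc11g011260), the DELLA repressor that the receptor removes, at 0.17 (SE 0.0286, p = 0.0150) in the authors' deposited table. SlGA2ox3, a catabolic oxidase gene, was at -0.24 (p = 0.0259), and the synthesis genes SlGA20ox2 and SlGA3ox1 were at -0.07 (p = 0.0136) and 0.07 (p = 0.0222) in the authors' deposited table. For these genes, SlGID1b1 was at -0.52, PROCERA at 0.13, SlGA2ox3 at 0.73, and SlGA20ox2 at -0.16, with SlGA3ox1 less than 0.01 from 0, in the authors' deposited table for rSBP15.

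Of 7 detected abscisic acid genes 2 were called (13.2% of all detected genes were), both of the dioxygenase that cleaves the carotenoid precursor. SlNCED1 (Solyc07g056570) was at -0.63 (SE 0.142, p = 0.0289) in miR156-OE and at 1.08 (p = 0.0111) in rSBP15 in the authors' deposited tables, and SlNCED2 was at -0.13 (p = 0.0363) in miR156-OE and at -0.10 in rSBP15. In the ethylene list SlACO1 (Solyc07g049530), which makes ethylene from its precursor, was the only 1 of 10 detected genes called, at -0.26 (SE 0.0363, p = 0.00968), against -0.03 in rSBP15, in the authors' deposited table. None of the 4 detected strigolactone genes was called (13.2% of detected genes were), with a range from -0.03 to 0.17, and SlCCD7 and SlD27 were listed at 0. None of the 3 brassinosteroid and 12 light signalling genes was called either. Of the 8 detected sugar genes 7 were above 0, where 12285 of all 24920 detected genes were. The called genes were 2, both higher, where 5.94% of all detected genes were called higher. The sucrose carrier gene SlSUT4 (Solyc04g076960) was at 0.11 (p = 0.0289) and the cell wall invertase gene LIN8 (Solyc10g083300) at 0.08 (p = 0.0260) in the authors' deposited table. Both genes had rSBP15 values in the authors' deposited table, 0.09 for SlSUT4 and 0.02 for LIN8.

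The flavonoid and anthocyanin list held 5 called genes of 14, 2 higher and 3 lower, where 13.2% of all detected genes were called. The early gene SlCHS2 (Solyc05g053550), a chalcone synthase, was at -0.87 (SE 0.213, p = 0.0348) and SlF3'H (Solyc03g115220), the hydroxylase of the flavonol branch, at -0.68 (SE 0.120, p = 0.0171) in the authors' deposited table. The late anthocyanin genes SlANS (Solyc08g080040) and SlF3'5'H (Solyc11g066580) were higher, at 0.47 (SE 0.112, p = 0.0329) and 0.45 (SE 0.125, p = 0.0468) in the authors' deposited table. All 4 had the opposite sign in rSBP15, at 1.30, 0.57, -0.70 and -0.37 in the authors' deposited table, with p-values of 0.0123, 0.0687, 0.00302 and 0.0227. SlFLS, a flavonol synthase gene, was the fifth called gene, at -0.09 (p = 0.0162), against -0.05 in rSBP15, in the authors' deposited table. With no moderation of the variance 2 of the 14 were called, where 2437 of all 24920 detected genes were.

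Called genes lay on all 12 chromosomes, read from the 2 digits that open each ID. Between 12.1% (chromosome 6) and 15.6% (chromosome 4) of the detected genes of a chromosome were called. Among runs of 20 neighbouring detected IDs, the one with the most called increases held 7, on chromosome 2, and includes CAB1 genes. The one with the most called decreases held 9, on chromosome 4.

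A value in only 1 of the 4 libraries was recognised for 1224 genes, whose p-values lie on the curve that such a pattern gives under a moderated test. In 573 of them the library was of miR156-OE and in 651 of MT. Their median size was 0.00360, against 0.0596 over all detected genes.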

How the data were processed

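Poly(A) RNA of pooled dormant buds was sequenced in stranded TruSeq libraries, per the labels' protocols, and HISAT2 and StringTie are named in the submitters' processing notes. Build, expression unit, filters and test are not given in the sources used here. The authors deposited a log fold change, read here as a score because its base is not stated, and a p-value per gene, per the file headers. There are no values per library, so depth and levels are unknown and no count test, planned for that case, was run. P-values were adjusted by Benjamini-Hochberg over genes with a log fold change other than 0 (threshold 0.05). The residual SD was recovered from each p-value under limma's moderated test with 2 residual degrees of freedom. The 2 constants of that test (0.347 prior degrees of freedom, prior variance 1.94e-06) came from 1224 genes within 1e-06 in p of the curve for 1 non-zero library, and limma 3.58.1 (R 4.3.3) returned the same constants from all 34075 recovered variances. The recovery was tested on simulated data. Members and lists were chosen with earlier results of these data known; lists around light-harvesting, heat-shock, defence and further floral MADS genes were added after the values were seen. Genes were named if called within a list, if of the SBP-box or branching list, if past the adjusted threshold, or as the 2 unnamed genes with the highest and the 2 with the lowest called values; other genes beside them were chosen after their values were seen. None of the IDs (0) is in the RefSeq gene table (41476 genes, assembly SLM_r2.1). Of 274 assigned names, 150 are in that table on the chromosome the ID gives, 122 are not in it, and 2, on another chromosome, were dropped. No sequence is shown, since none was given.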

Additional observations from a re-analysis of the deposited data

How the results depend on the processing

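No paired analysis was possible because no value of a single library is in the tables, which also prevented leaving out any replicate. The 5 genes past the adjusted threshold became 0 when the undetected IDs were included in the adjustment, 0 when limma's moderation was refitted on detected genes, 2 without moderation, 0 at a threshold of 0.01 and 1 among genes of size at least 1. Under the first 3 settings all 5 genes lost their call, at adjusted p-values of 0.0539 to 0.207, and the 2 genes called without moderation were others. None of the other 90 named genes gained a call. Genes with an unadjusted p under 0.05 numbered 3119 refitted and 2437 unmoderated, against 3301, and 6641 of the 9448 that cannot overlap passed a margin of 2 SD. For the lists these settings were chosen after seeing the data. Called SBP-box genes numbered 10 refitted and 9 unmoderated, and called flowering regulators 11 and 8. Refitting moved the called auxin genes to 4 of 19, Kunitz genes to 6 of 8 and inhibitor I genes to 2 of 6, and without moderation 1 gene of the first floral MADS list and 1 abscisic acid gene were called. Log fold changes are the same under every setting, since each alters only the test.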
